A study of Mus musculus with 8 samples.

Results

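Sites bound by the transcription factor C/EBPα in every mouse liver library of the series, and lying close together, form the subject here. Peaks of 200 bp from 8 ChIP-seq peak lists were joined into sites where they overlapped by 1 bp or more, which gave 113353 sites. Of these, 24318 sites (21.5%) were called in all 8 lists and are termed constitutive. Constitutive sites whose midpoints lay at most 5 kb from the next were strung into chains, and chains of 4 or more sites were kept. They held 375 sites in 89 chains, which is 1.54% of the constitutive sites and 0.331% of all sites. Calls and positions chose these sites, so their number and spacing are given as a description. Their signal did not enter the chaining.

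Each group had 2 libraries. In Trib1_LSKO, Trib1 flox/flox mice received a Cre-coding adeno-associated virus (AAV_Cre) at 1.5e11 gc, and in Trib1_WT such mice received AAV_Null at that dose, so both groups carry the floxed alleles. In AAV_Cebpa, C57B/6 WT mice received a virus coding for C/EBPα at 1e12 gc, and in AAV_Null the same kind of mice received the null virus at 1e12 gc. All were 8 to 10 weeks old and had fasted for 4 hours, and all libraries came from liver with the same C/EBPα antibody. The promoter that drives Cre or Cebpa, and whether the libraries came from separate animals, were not given in the sources used here, so the spread between replicates may be technical. Peak lists measure neither transcripts nor protein, so the loss of Trib1, the extra C/EBPα and the cell types of the tissue could not be checked.

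C/EBPα is a basic leucine zipper factor that binds DNA as a dimer and keeps hepatocyte genes of metabolism and plasma protein synthesis active. Trib1 encodes a pseudokinase that brings C/EBPα to the ubiquitin ligase COP1 for degradation. Regulatory regions that hold several binding sites for liver factors within a few kilobases are common near highly expressed liver genes. No genome or gene annotation of build mm9, which the lists use, was used here. The chains are therefore given by mm9 position, with no gene and no sequence.

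Most constitutive sites had no constitutive neighbour within 5 kb. Single sites numbered 16964, and there were 2870 chains of 2, 413 of 3, 73 of 4, 13 of 5 and 3 of 6 sites. The 89 chains were 3044 to 15051 bp long, with a median of 8323 bp, and covered 767 kb in all. The 286 distances between neighbouring midpoints had a median of 2571 bp and an interquartile range of 1319 to 3914 bp. The shortest was 461.5 bp, and 51 distances (17.8%) were under 1 kb. The joined sites had a median width of 232 bp in chains and 235 bp among the other constitutive sites. Every deposited peak is 200 bp wide, so these widths do not tell separate narrow peaks from a wide bound region.

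The largest chains had 6 sites. Chain A was at chr1:132980324-132993218, chain B at chr18:65376514-65391564 and chain C at chr7:137354973-137369028. Chain B was also the longest of the 89. The next 7 by number of sites, ordered by mean signal percentile, had 5 sites each. They were chain D at chr13:53068087-53081374, chain E at chr4:62999797-63009841, chain F at chr9:46064352-46069656, chain G at chr6:128785647-128793985, chain H at chr10:41985181-41998088, chain I at chr4:132038927-132048903 and chain J at chr16:23982698-23996819. Chain F was the most compact of these 10, with 5 sites in 5305 bp. The shortest chain of all, chr11:117706398-117709441, had 4 sites in 3044 bp.

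**Figure D1:**
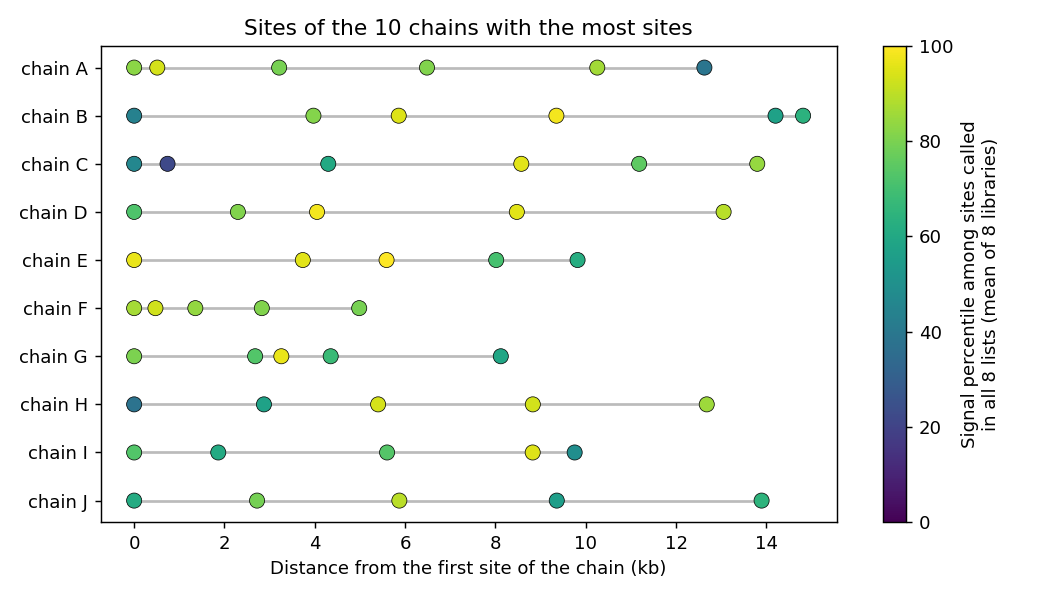
Sites of the 10 chains with the most sites, as the distance of each site's midpoint from the first site of its chain (x axis, kb). Each point is 1 site, and its colour is its signal percentile among the constitutive sites, averaged over 8 libraries. Percentiles of sites run from 22.0 to 95.7 in chain C and from 79.6 to 92.9 in chain F, which packs 5 sites into 5305 bp.

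Chains were unevenly spread over the chromosomes. Chromosome 4 held 11 of the 89, chromosomes 1 and 7 held 9 each and chromosome 6 held 8. Clustered sites were 3.21% of the constitutive sites of chromosome 4 and 3.01% of those of chromosome 7. Chromosome 2 held 1657 constitutive sites, 23 chains of 3 and no chain of 4 or more. Chromosome 5 had 1466 constitutive sites and 2 chains. A few chains lay near each other. In 14 of the 89, the midpoint of another chain lay within 500 kb, which makes 7 pairs. The closest pair was chain E and chr4:63018101-63027525, with midpoints 18.0 kb apart. The pair chr9:121811347-121814966 and chr9:121829480-121836066 was 19.6 kb apart, and chain J and chr16:24222133-24232738 were 238 kb apart.

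Membership depends on the 5 kb limit for some chains. Of the 89, 28 had a largest inner distance above 4.5 kb, and their mean percentiles had a median of 65.1. Just inside the limit was chr1:90103383-90110465, with an inner distance of 5000 bp and a mean percentile of 80.6. Just outside it, 21 chains of 3 had a further constitutive site within 5.5 kb, and their mean percentiles had a median of 74.1. The nearest of these, chr10:107882212-107885895, had its next site 5031 bp away and a mean percentile of 45.3.

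Clustered sites carried more signal than isolated ones in every library. The signal of a peak is the authors' own value and was ranked among the 24318 constitutive sites of the same library, with 100 as the strongest. Over the clustered sites the median of this rank was 65.9 and 69.8 in Trib1_LSKO, against 69.5 and 72.2 in Trib1_WT. It was 66.4 and 65.6 in AAV_Cebpa, against 68.0 and 68.9 in AAV_Null. Single constitutive sites had medians of 44.6 to 46.6 in the 8 libraries. Since each library ranks the same sites, the 8 libraries are not separate tests of this difference, and none was made.

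Signal went up with each step of chain size up to 4 in all 8 libraries. Sites in chains of 2 had median percentiles of 54.5 to 58.3, those in chains of 3 had 60.8 to 68.5, and those in chains of 4 had 63.9 to 72.0. The 65 sites in chains of 5 had medians of 62.6 to 72.2 and the 18 sites in chains of 6 had 70.9 to 84.4. In AAV_Cebpa replicate 1, chains of 5 had a lower median (62.6) than chains of 4 (66.4). With 13 and 3 chains, the last 2 classes rest on few loci.

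**Figure D2:**
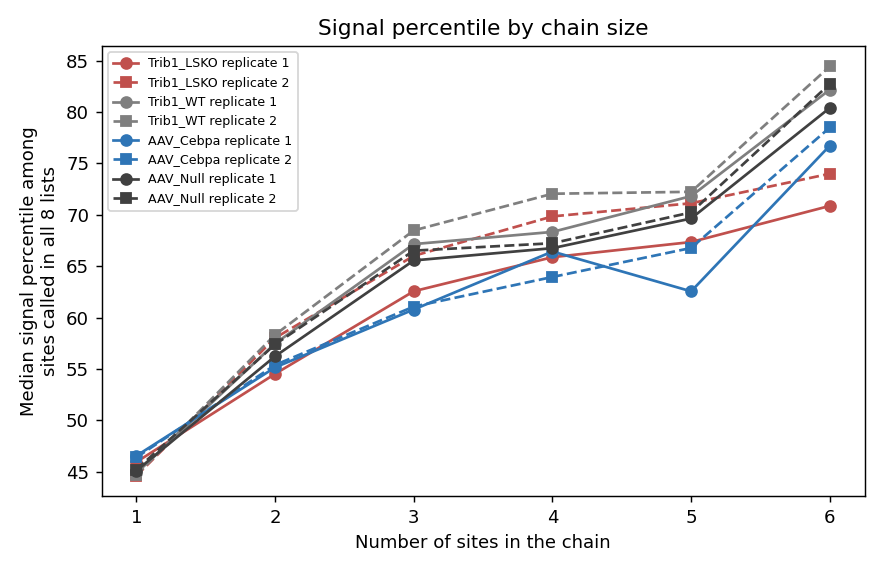
Median signal percentile of sites (y axis) by the number of sites in their chain (x axis), 1 line for each of the 8 libraries. Percentiles run over the 24318 constitutive sites of a library. All 8 lines lie near 45 for single sites and between 70.9 and 84.4 for chains of 6.

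Sites of a chain differed in strength, more so in some chains than in others. In 66 of the 89, at least 1 site had a mean percentile of 75 or more, and in 34 all sites were at 50 or above. In 9 chains at least 1 site was below 25. The strongest site of a chain held a median of 32.9% of the chain's signal, with a range of 23.3% to 53.1%. An equal split would give each site 25% in the 73 chains of 4 sites, and less in longer chains. In 3 chains it held over 50%, among them chr10:76860067-76869640 with 53.1%. Outer sites of chains had a median mean percentile of 62.9, and inner sites one of 70.1. The strongest site was the first or last of its chain in 36 of 89 chains, while such outer positions made up 47.5% of the clustered sites.

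The summed signal of a chain, as deposited, ran from 62.3 to 662 over the 89 chains and 8 libraries. Its median over chains was 206 and 231 in Trib1_LSKO and 253 and 239 in Trib1_WT. It was 181 and 228 in AAV_Cebpa, against 257 and 267 in AAV_Null. The deposited values were whole multiples of 1 step per library, within 0.051, for at least 99.8% of peaks. Taking a step as 1 sequence tag, a chain held 83.1 to 1312 tags in a library, with a median of 416. The counting error alone is then 4.90% of the value at that median and 10.97% for the weakest chain.

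To compare libraries, a chain's summed signal was expressed per 10000 units of the library's signal over all constitutive sites. Replicates differed on this scale by a median of 0.11 (log2) in Trib1_LSKO, 0.10 in Trib1_WT, 0.08 in AAV_Cebpa and 0.13 in AAV_Null. The largest difference between replicates at a chain was 0.44, 0.43, 0.47 and 0.56 in the same order. The 5 chains with the highest mean share were chr15:59475403-59485633, at 4.49 per 10000, and chains E, D, B and A, at 4.43, 4.21, 3.93 and 3.86. The chr15 chain had 4 sites in 10231 bp, and 2 of them had mean percentiles of 99.7. Its summed signal was 441 and 460 in Trib1_LSKO, against 596 and 445 in Trib1_WT. It was 359 and 384 in AAV_Cebpa, against 630 and 648 in AAV_Null. The first pair of groups overlapped on this deposited scale and the second did not.

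The first comparison asked whether targeting Trib1 with Cre altered occupancy of the clusters. The libraries are of whole tissue, so fewer cells of a type and less binding per cell cannot be told apart. Clustered sites together held a smaller part of the constitutive signal in Trib1_LSKO, 1.92% and 2.00%, than in Trib1_WT, 2.09% and 2.11%. The means were 1.96% ± 0.05 and 2.10% ± 0.02 (SD, n = 2 each), a ratio of 0.935. The groups did not overlap, and p was 0.333 by exact permutation of the 4 libraries (two-sided), the smallest value that 2 against 2 allow. The median percentile of clustered sites did overlap between these groups (exact two-sided permutation p = 0.667, n = 2 each).

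**Figure D3:**
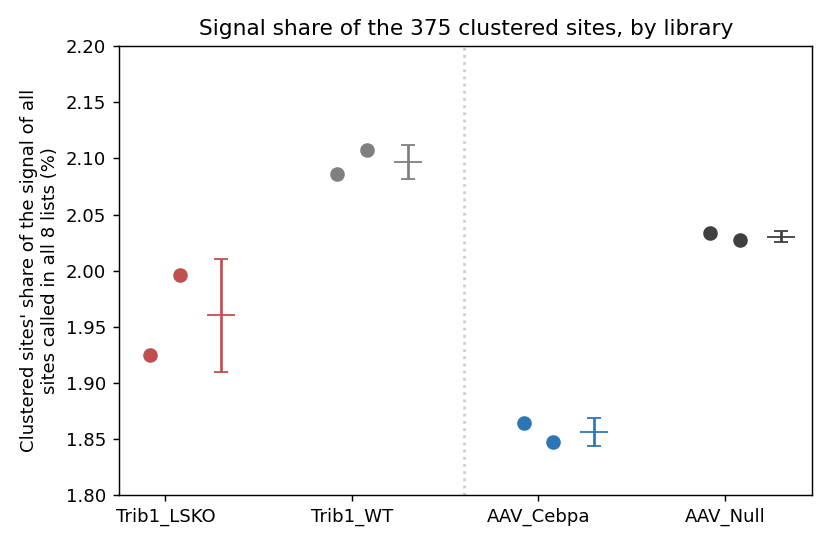
Percent of the signal of all constitutive sites that the 375 clustered sites held (y axis, a range that does not start at 0) in each library (points), by group (x axis), with the mean and SD of the 2 libraries beside them. Both Trib1_LSKO points lie below both Trib1_WT points, and both AAV_Cebpa points lie below both AAV_Null points.

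Site by site, the shift in Trib1_LSKO was towards lower shares. A site is counted as lower when both Trib1_LSKO libraries lay below both Trib1_WT libraries in share of the constitutive signal, and as higher in the reverse case. Of the 375 clustered sites, 153 (40.8%) were lower and 47 (12.5%) higher. Over all constitutive sites, 29.2% were lower and 22.9% higher. The median log2 ratio was -0.15 for clustered sites and -0.06 for all constitutive sites. Summed over whole chains, 45 of the 89 (50.6%) were lower and 9 (10.1%) higher, against 29.4% and 24.0% of chains of any size, single sites included. Leaving out either library of either group gave 14 to 19 higher chains, with 52 to 61 lower. A sum over 4 or more sites varies less than a single site, so the count by site is the more even comparison.

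The share of lower sites went up with chain size as far as chains of 5. It was 28.0% for single sites, 31.1% in chains of 2, 34.1% in chains of 3, 37.3% in chains of 4 and 55.4% in chains of 5. It was 44.4%, or 8 of 18 sites, in chains of 6. Because clustered sites are stronger, the same count was made within 4 classes of equal size, set by the mean percentile of all constitutive sites over the 8 libraries. In class 4, the strongest, 38.5% of 156 clustered sites were lower, against 32.7% of the other sites. In class 3 these shares were 42.5% of 127 and 32.4%, in class 2 they were 45.2% of 73 and 28.2%, and in class 1 they were 31.6% of 19 and 23.0%. The share of lower sites was higher among clustered than among other sites in each of the 4 classes. No test was made of these shares, since neighbouring sites are not separate samples.

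**Figure D4:**
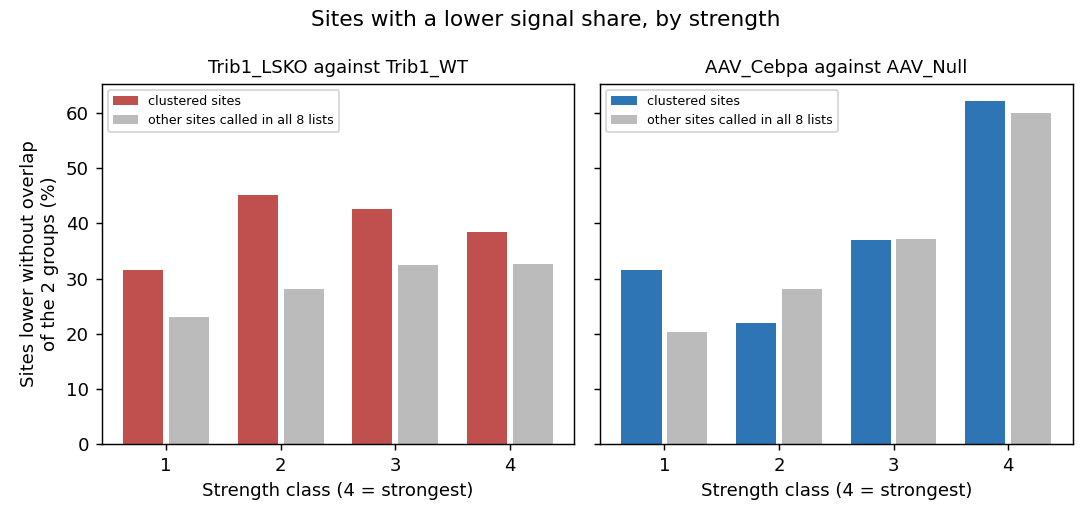
Percent of sites that were lower without overlap of the 2 groups (y axis, from 0) in each of 4 equal classes of mean signal percentile (x axis, 4 is the strongest), for the clustered sites (coloured) and the other constitutive sites (grey). The bars of clustered sites exceed the others in all 4 classes for Trib1_LSKO, while for AAV_Cebpa they reach 62.2% and 60.0% in class 4.

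Of the 5 chains with the lowest ratio in Trib1_LSKO, 3 had a mean percentile under 50. The lowest was chr15:3526843-3534690, with a summed signal of 62.3 and 80.4 in Trib1_LSKO and 99.7 and 111 in Trib1_WT. Its log2 ratio of shares was -0.49, and both Trib1_LSKO values lay below both Trib1_WT values. Next were chr3:94484744-94494905 (-0.46), chr7:29710512-29716754 (-0.42), chr17:65090400-65097753 (-0.39) and chain A (-0.34). In chain A the summed signal was 338 and 373 in Trib1_LSKO, against 525 and 431 in Trib1_WT. All 6 of its sites were lower, with log2 ratios of -0.63 to -0.21. The lowest of these was at its weakest site, with a signal of 17.4 and 28.0 in Trib1_LSKO and 42.2 and 32.0 in Trib1_WT.

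Higher chains in Trib1_LSKO moved less. The highest was chr13:104827733-104834740, with a summed signal of 277 and 314 in Trib1_LSKO and 259 and 250 in Trib1_WT, and a log2 ratio of shares of 0.30. It was followed by chr7:119335837-119345947 (0.27), chr16:5130973-5136965 (0.25), chr3:27121061-27127909 (0.25) and chain C (0.24). Chain C, with 6 sites, was thus on the opposite side from chain A. Its summed signal was 355 and 376 in Trib1_LSKO and 347 and 310 in Trib1_WT. Of its 6 sites 4 were higher and none was lower. The second site, the weakest of the chain, had a signal of 21.9 and 31.6 in Trib1_LSKO, against 14.1 and 15.8 in Trib1_WT (log2 ratio of shares 0.91).

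Sites of a chain did not always move together. In 6 chains all sites were lower in Trib1_LSKO, in none were all higher, and in 24 chains at least 1 site was lower and another higher. The log2 ratios of sites had a median range of 0.49 within a chain, while whole chains ran from -0.49 to 0.30. The median over whole chains was -0.11. Replicates of a chain differed by a median of 0.11 and by up to 0.44 in Trib1_LSKO, and by 0.10 and up to 0.43 in Trib1_WT. The strongest sites of the 89 chains were lower in 35 and higher in 11, and the weakest sites were lower in 38 and higher in 10. Strong and weak sites of a chain thus shifted in similar numbers in this comparison.

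The second comparison asked how added C/EBPα altered the clusters. Clustered sites held 1.86% and 1.85% of the constitutive signal in AAV_Cebpa, against 2.03% and 2.03% in AAV_Null. The means were 1.86% ± 0.01 and 2.03% ± 0.005 (SD, n = 2 each), a ratio of 0.914. The groups did not overlap, and the exact permutation p (two-sided) was 0.333, again the smallest possible. Chains of 3 showed about the same ratio (0.914), chains of 2 one of 0.967 and single sites one of 1.02. The median percentile of clustered sites did not overlap between these groups, with means of 66.0 in AAV_Cebpa and 68.4 in AAV_Null (exact two-sided permutation p = 0.333, n = 2 each).

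In AAV_Cebpa a smaller share of clustered sites was higher, and a larger share lower, than of all constitutive sites. Of the 375 clustered sites, 166 (44.3%) were lower in AAV_Cebpa and 98 (26.1%) higher, against 36.3% and 36.5% of all constitutive sites. By chain size, 34.6% of single sites were lower and 38.3% higher. In chains of 2 these shares were 39.1% and 33.6%, and in chains of 3 they were 44.9% and 28.2%. They were 42.1% and 27.1% in chains of 4, 50.8% and 23.1% in chains of 5, and 55.6% and 22.2% in chains of 6. Chains of 3 thus showed about the same shares as the clustered sites. Of whole chains, 45 of 89 (50.6%) were lower and 27 (30.3%) higher, against 36.0% and 37.3% of chains of any size. Within strength classes, the share of lower sites in class 4 was 62.2% of the clustered and 60.0% of the other sites, and in class 3 it was 37.0% and 37.1%. In class 2 it was 21.9% and 28.0%, and in class 1 it was 31.6% and 20.2%. The share of higher sites was 21.2% of the clustered and 18.8% of the other sites in class 4, and 24.4% and 37.8% in class 3. It was 37.0% and 44.6% in class 2 and 36.8% and 45.0% in class 1. The share of higher sites was smaller among clustered than among other sites in classes 1 to 3 and larger in class 4, and no test was made of these shares.

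Within chains, the counts for strong and for weak sites differed in AAV_Cebpa. The strongest site of a chain was lower in 53 of 89 chains and higher in 17, with a median log2 ratio of shares of -0.32. The weakest site was lower in 20 and higher in 31, with a median of 0.07. Constitutive sites outside the chains were split by strength too, with 60.0% lower, 18.8% higher and a median of -0.29 in class 4, and 20.2% lower, 45.0% higher and a median of 0.26 in class 1. A split between strong and weak sites was thus also present outside chains. In 48 chains at least 1 site was lower and another higher, and 72 had log2 ratios of both signs. The median range of log2 ratios within a chain was 1.09. In chain B, the first site had a signal of 42.9 and 56.0 in AAV_Cebpa and 26.6 and 30.7 in AAV_Null. The strongest site of that chain, number 4 from its start, had 82.9 and 94.5 in AAV_Cebpa, against 188 and 184 in AAV_Null. The log2 ratios of shares were 1.09 at the first and -0.76 at the strongest, and their midpoints were 9.35 kb apart.

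The 5 highest chains in AAV_Cebpa had mean percentiles of 23.8 to 62.5. The highest was chr3:129287664-129297225, with a summed signal of 120 and 176 in AAV_Cebpa, against 78.4 and 95.4 in AAV_Null, and a log2 ratio of shares of 1.06. It was the only one of the 89 chains in which all sites were higher in AAV_Cebpa. Next were chr7:148020907-148031042 (0.88), chr14:63720423-63730810 (0.76), chr14:18557222-18566182 (0.74) and chr7:119583432-119593773 (0.65). The chr14 chain at 63720423 had the lowest mean percentile of all chains, 23.8.

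The lowest in AAV_Cebpa was chr19:30231936-30237565, with a summed signal of 139 and 162 in AAV_Cebpa and 311 and 325 in AAV_Null, and a log2 ratio of -0.77. All 4 of its sites were lower in AAV_Cebpa, and all 4 were lower in Trib1_LSKO as well. Next were chr17:65090400-65097753 (-0.74), chr14:41909685-41918417 (-0.73), chr11:117706398-117709441 (-0.67) and chr10:76860067-76869640 (-0.60). The chr14 chain is among the strongest, with a mean percentile of 91.4 and a summed signal of 233 and 297 in AAV_Cebpa, against 552 and 534 in AAV_Null. The chr17 chain was also among the 5 lowest in Trib1_LSKO. Its summed signal was 170 and 212 in Trib1_LSKO and 251 and 274 in Trib1_WT, and 78.7 and 131 in AAV_Cebpa and 202 and 223 in AAV_Null.

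Of the 10 chains with the most sites, 8 were lower in AAV_Cebpa, against 50.6% of all 89 chains. Chains A, B, E, F, G, H, I and J were these 8, chain D was higher and chain C overlapped. The chains of 5 among these 10 are those with the highest mean percentiles. Of all 16 chains with 5 or more sites, 11 were lower and 2 higher. Outside the 89 chains, 60.0% of the constitutive sites in the strongest class were lower too. Chain F, the compact one, had a summed signal of 264 and 339 in AAV_Cebpa and 537 and 506 in AAV_Null, and 333 and 369 in Trib1_LSKO against 476 and 411 in Trib1_WT. In chain D the summed signal was 386 and 440 in AAV_Cebpa, against 463 and 397 in AAV_Null, which overlap as deposited. Its share was 4.36 and 3.91 per 10000 in AAV_Cebpa, against 3.84 and 3.11 in AAV_Null.

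The comparisons use separate control libraries. Of the 45 chains lower in Trib1_LSKO, 30 (66.7%) were also lower in AAV_Cebpa, and since 45 were lower there too, this is the same share of both sets. Of all 89 chains, 50.6% were lower in AAV_Cebpa. A further 9 were lower in Trib1_LSKO and higher in AAV_Cebpa, 2 were higher in Trib1_LSKO and lower in AAV_Cebpa, and 6 were higher in both. Of the clustered sites, 23.5% were lower in both comparisons and 8.27% higher in both. Over all constitutive sites, 15.6% were lower in both and 16.2% higher in both. Of the clustered sites lower in Trib1_LSKO, 57.5% were also lower in AAV_Cebpa, against 53.3% over all constitutive sites. Of those lower in AAV_Cebpa, 53.0% were also lower in Trib1_LSKO, against 42.9% over all constitutive sites. No test was made of these shares.

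**Figure D5:**
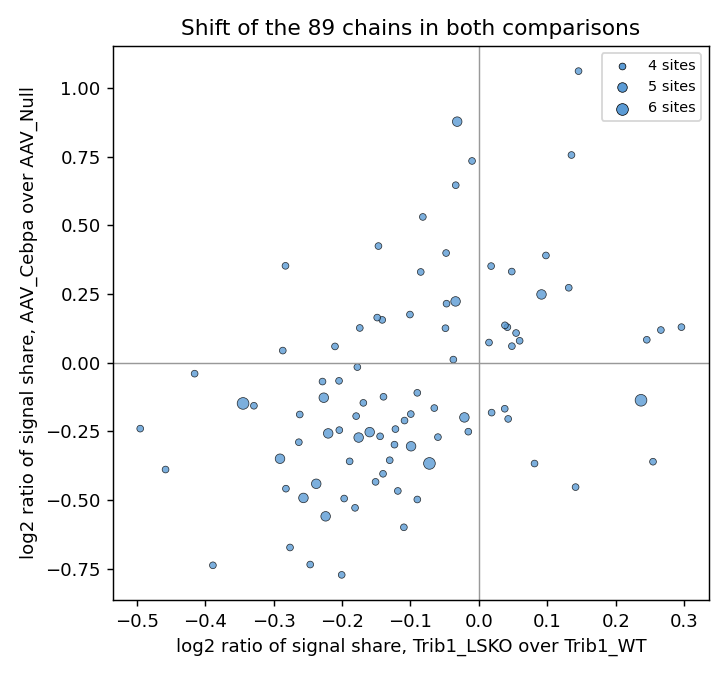
Log2 ratio of the chain's share of constitutive signal for Trib1_LSKO over Trib1_WT (x axis) and AAV_Cebpa over AAV_Null (y axis). Each point is 1 of the 89 chains, and larger points have more sites. The lower left holds the 30 chains that were lower in both comparisons, beside others whose groups overlapped in at least 1 comparison. The points spread from -0.77 to 1.06 on the y axis and from -0.49 to 0.30 on the x axis.

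Both AAV_Cebpa libraries were deeper than both AAV_Null libraries, while the depths of Trib1_LSKO and Trib1_WT overlapped. The share of clustered sites with over 200 tags overlapped between the groups in both comparisons. What part depth and a ceiling on the signal had in the differences was not tested. Relative to the shallowest library, AAV_Null replicate 1, depth was 1.18 and 1.28 in Trib1_LSKO, 1.14 and 1.93 in Trib1_WT, 1.85 and 2.27 in AAV_Cebpa and 1.17 in AAV_Null replicate 2. The strongest peak of any list held 328 to 397 tags. No peak passed 400, the number of positions on both strands of 200 bp. Sites with over 200 tags made up 29.1% of the clustered sites in AAV_Cebpa replicate 2, 22.4% in Trib1_WT replicate 2 and at most 6.93% in the other 6 libraries. With tags corrected as if each position and strand could keep only 1, clustered sites held 1.90% and 1.90% of the constitutive signal in AAV_Cebpa and 2.09% and 2.08% in AAV_Null. The corrected values were 1.96% and 2.05% in Trib1_LSKO, against 2.16% and 2.23% in Trib1_WT. The corrected differences were -0.184 percentage points for Trib1_LSKO and -0.186 for AAV_Cebpa, beside -0.136 and -0.174 uncorrected. The correction was chosen after seeing the data and assumes a rule on duplicates that the sources used here do not state.

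The scale of the signal changes the counts of higher and lower chains. The lists hold different totals, and constitutive sites made up 59.9% and 50.2% of the summed signal in the AAV_Cebpa lists, against 75.8% and 73.2% in the AAV_Null lists. As a part of the whole list, 5 chains were higher and 76 lower in AAV_Cebpa, and as deposited 5 and 59. The median log2 ratio of all constitutive sites was then -0.44 and -0.30, where it is close to 0 on the constitutive scale. Relative to that median, clustered sites were shifted by -0.12 on each of these 3 scales. In Trib1_LSKO 4 chains were higher and 49 lower as deposited, where the median of all constitutive sites was -0.14 and clustered sites were shifted by -0.08 from it. By site, 9.33% of clustered sites were higher and 44.3% lower on that scale, against 18.2% and 35.3% of all constitutive sites.

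Sites that were not constitutive also lay inside the chains. The spans from first to last site held 61 of the 89035 such sites, 0.796 per 10 kb, and 44 of the 89 chains held none. Spans of chains of 3 held 0.709 and those of chains of 2 held 0.758 per 10 kb. The density over the whole genome was not computed, so whether the spans hold few or many such sites is not known. Of the 61 sites, 16 (26.2%) were gained in AAV_Cebpa, that is, called in both AAV_Cebpa lists and in neither AAV_Null list, and 6 (9.84%) were lost. Over all sites that were not constitutive, 24.8% were gained and 6.79% lost, so the shares inside chains were close to those elsewhere. In Trib1_LSKO, 3 of the 61 (4.92%) were gained and 1 (1.64%) was lost, against 4.01% and 4.11% of all such sites. These few sites numbered up to 6 gained and 4 lost when 1 library was left out. In AAV_Cebpa, 30 were gained without its replicate 1, and 16 were lost without AAV_Null replicate 1.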

How the data were processed

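The data are 8 lists of C/EBPα ChIP-seq peaks from mouse liver, 1 per library, in 4 groups of 2 as the labels give them. The submitters' processing notes name Bowtie, HOMER and build mm9. For versions, input, threshold and duplicates, the state is: not given in the sources used here. Each deposited line holds a 200 bp position and 1 signal value, scaled per library by the authors to a total that is not given. The unit was taken as signal because values are whole multiples of 1 step per list.

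Lists were read with pandas 2.3.3 and NumPy 2.4.6 (Python 3.11.15), positions made 1-based, and peaks overlapping by 1 bp joined. Where a list had more than 1 peak in a site (3 cases, none in a chain), the stronger was kept. Single values were compared by exact permutation over 4 libraries, and sites and chains by counts without overlap beside the same counts over all constitutive sites. No p-value was computed per site, since 2 against 2 cannot pass 0.05. Scripts were tested on simulated data.

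Regions named are the 10 chains with the most sites, the longest, the 5 with the highest share, and the 5 highest and 5 lowest per comparison among chains without overlap, by log2 ratio. Others were picked after their values were seen. The rule for clustered sites, the lists and the tests were chosen with earlier results of these data known. Planned gene lists, motifs and sequences need build mm9 and were not used here. Intervals and counting errors cover counting only. Alternatives were chain distance, minimum number of sites, overlap, shorter lists, signal scales, leaving out each library and pairing of replicate numbers. The correction for the 400-tag ceiling was chosen after seeing the data.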

Additional observations from a re-analysis of the deposited data

How the results depend on the processing

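Neither comparison can reach a p under 0.333, so directions and counts are all that the alternatives can check. Of 266 values recomputed under 20 alternatives, 193 stayed the same and 73 moved. Differences were the same if they kept their sign, and counts if they stayed within 1.5 times the main count. The percent of constitutive sites in chains was the same if it stayed within the binomial interval of the main value. Only the differences could reverse, and 0 did. The difference in the share of constitutive signal held by clustered sites stayed negative in both comparisons under every alternative. It ran from -0.18 to -0.11 percentage points for Trib1_LSKO and from -0.21 to -0.16 for AAV_Cebpa when 1 library was left out. The difference in median percentile ran from -4.92 to -0.83 and from -3.21 to -1.93.

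The number of chains follows the rule. A chain distance of 2.5 kb left 9 chains with 37 sites (0.152% of constitutive sites), and 10 kb gave 598 with 2803 (11.5%). At least 3 sites gave 502 with 1614 (6.64%), at least 5 gave 16 with 83 (0.341%), and the strongest 50% of each list gave 51 with 218. Leaving out 1 library, which eases the call in all lists, gave 90 to 103 chains, 379 to 433 sites and 1.54% to 1.70%.

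Counts of higher and lower chains in Trib1_LSKO were 0 and 4 at 2.5 kb, 90 and 271 at 10 kb, 71 and 224 with at least 3 sites and 1 and 10 with at least 5. With the strongest 50%, 21 were lower, and as deposited 4 were higher. In AAV_Cebpa they were 3 and 3, 160 and 279, 131 and 244, and 2 and 11 in the same order, and 15 and 21 with the strongest 50%. As deposited 5 were higher, and as a part of the whole list 5 were higher and 76 lower. Of all constitutive sites, 21.1% were higher as deposited, and 19.9% were higher and 56.1% lower as a part of the whole list. Lower chains outnumbered higher ones in all of these except AAV_Cebpa at 2.5 kb. With 1 library left out, 9 to 19 were higher and 48 to 61 lower in Trib1_LSKO, and 25 to 38 and 45 to 58 in AAV_Cebpa. The higher chains in Trib1_LSKO numbered 19 without Trib1_LSKO replicate 1, 14 without replicate 2, 18 without Trib1_WT replicate 1 and 19 without its replicate 2. A lone library overlaps less often by construction.

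Gained and lost sites inside spans were 0 and 0 in both comparisons at 2.5 kb. In Trib1_LSKO they were 55 and 43 at 10 kb, 7 and 7 with at least 3 sites, 1 and 0 with at least 5, and 0 lost with the strongest 50%. In AAV_Cebpa they were 286 and 132, 61 and 22, and 4 and 2, with 9 gained for the strongest 50%. Leaving out 1 library gave 3 to 6 gained and 1 to 4 lost in Trib1_LSKO and 16 to 30 and 6 to 16 in AAV_Cebpa. The 30 were found without AAV_Cebpa replicate 1, with 102 chains, and the 16 without AAV_Null replicate 1, with 103 chains. Leaving out a library changes the chains and also eases the call of a gained or lost site.

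Replicate numbers do not pair the libraries by any label. Deviations of same-numbered libraries correlated across constitutive sites at 0.12 in the first comparison and -0.02 in the second. With the replicate block, where both same-numbered pairs must move one way, 14 chains were higher and 54 lower in Trib1_LSKO, and 29 and 49 in AAV_Cebpa, and the smallest possible p is 0.5.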
